A study of Marmota monax with 203 samples.

Results

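The T cell receptor recognises antigen on the surface of another cell, and it cannot signal on its own. Its signals pass through the CD3 chains encoded by CD3D, CD3E and CD3G and through the zeta chain encoded by CD247. The kinase LCK phosphorylates these chains, ZAP70 binds the phosphorylated chains and relays the signal, the coreceptors CD4 and CD8A bring LCK to the receptor, and CD2 is an adhesion and costimulatory receptor of T cells and NK cells. The liver holds resident and recruited T cells, and in chronic hepatitis B virus infection the antiviral T cell response there is known to be weak. The transcripts described here are those of these 9 genes, taken by symbol from the 17587 genes of the deposited tables. Each gene had reads in every biopsy compared, except that CD2 had 0 reads in 1 of 149.

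Liver biopsies came from captive-born woodchucks (Marmota monax) that were infected with woodchuck hepatitis virus (WHV) as neonates and were chronic carriers as adults, so both groups carried the infection and no uninfected animal was compared. The animals received either placebo or recombinant woodchuck interferon alpha (wIFN-α) subcutaneously, at 20 µg at weeks 0 and 3 and at 100 µg at weeks 7, 11 and 15, and week -3 preceded treatment while weeks 19 and 23 followed it. By the paper, doses were given 3 times a week and on-treatment biopsies were taken 6 hours after a dose. The week 0 biopsy followed the first 20 µg dose, and the week 7 biopsy followed the first 100 µg dose. The placebo group held 12, 12, 12, 12, 10, 9, 5 and 9 animals at weeks -3, 0, 3, 7, 11, 15, 19 and 23, and the wIFN-α group held 11, 11, 9, 9, 8, 8, 6 and 6. By the paper, animals of both groups died or were euthanised during the study. Both sexes were present, ages at biopsy were not given in the sources used here, and the labels count the first week of dosing as week 1 where the study and this text count it as week 0.

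In all, 149 biopsies of 23 animals were compared, with 12072840 to 84805845 reads on genes each (median 28754894). The pan-leukocyte gene list, which marks blood-derived immune cells, summed to between 66.7 and 419 reads per 1000000 reads of the library (CPM, with the TMM scaling of edgeR) in every biopsy. The liver label did not hold for a pair of libraries. At week -3 the biopsies of F1018 (wIFN-α) and F1016 (placebo) held 289 and 462 CPM of a list of 10 hepatocyte genes, against at least 38974 CPM in the other biopsies, and 14.96% of the reads of each fell on skeletal muscle genes. F1018 was the lowest wIFN-α animal for all 9 genes at week -3, and F1016 was the lowest placebo animal for 8 of them. These libraries bear on week -3 and on changes counted from it. In all, 22 of the biopsies compared had over 1% of reads on muscle genes. The counts of members and of all genes called at each week and in the contrasts between weeks were also taken without them. So were the tested ratios, but not the counts from gene lists, the counts without overlap or the test of sex.

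In the placebo animals, the order of the 9 genes was led by the CD3 chains. With each gene's CPM divided by its transcript length in kb, CD3E had the highest mean level, 23.5 CPM per kb ± 4.26 (SD, n = 12 animals), and lay above CD3G in 12 of 12 animals. CD3G followed at 8.20 ± 0.992 CPM per kb and CD3D at 7.19 ± 2.55 CPM per kb. Those neighbours were not separated by their spread, since CD3G was the higher in 7 of 12 animals. CD4 stood at 5.54 ± 2.17, LCK at 2.69 ± 0.757 and CD8A at 1.45 ± 0.421 CPM per kb. CD247 (0.589 ± 0.161), ZAP70 (0.467 ± 0.133) and CD2 (0.370 ± 0.170 CPM per kb) were the scarcest. The depth differed accordingly, with a median of 1231 reads per biopsy on CD3E, 412 on CD4, 322 on CD3G, 260 on LCK, 152 on CD3D, 135 on CD8A, 69 on CD247, 67 on ZAP70 and 16 on CD2, so the CD2 values are the least precise.

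The first question was at which weeks the wIFN-α animals differed from placebo animals biopsied at the same week. Before treatment none of the 9 genes was called, with or without the muscle-rich biopsies. CD3E alone was higher at weeks 0 and 3 on 20 µg, and at week 7 CD3E was higher and CD4 lower. At week 11, 7 of the genes (all but CD4 and CD8A) were higher, and at week 15 8 (all but CD4), with fold changes of 1.75 (CD3G) to 3.65 (CD2). At weeks 19 and 23, after dosing had ended, none was called. A gene was called where edgeR's quasi-likelihood test gave a Benjamini-Hochberg adjusted p under 0.05 over all genes tested and the fold change passed 1.5. The share of all tested genes called higher was 10.3% at week 0, 7.24% at week 3, 11.4% at week 7, 12.6% at week 11 and 13.4% at week 15, and 10.1% were called lower at week 7. At weeks -3, 19 and 23 it was 0%. In those 3 weeks no member had an unadjusted p under 0.05, and DESeq2 called none of the 9. All of the members but CD4 belong to gene sets that the study drew from these same animals, by comparisons with placebo at weeks 0, 3 and 15. Their counts at weeks 0, 3, 11 and 15 are therefore not independent evidence of a direction. In a bulk biopsy, more T cells and more of each transcript per T cell cannot be told apart.

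**Figure D1:**
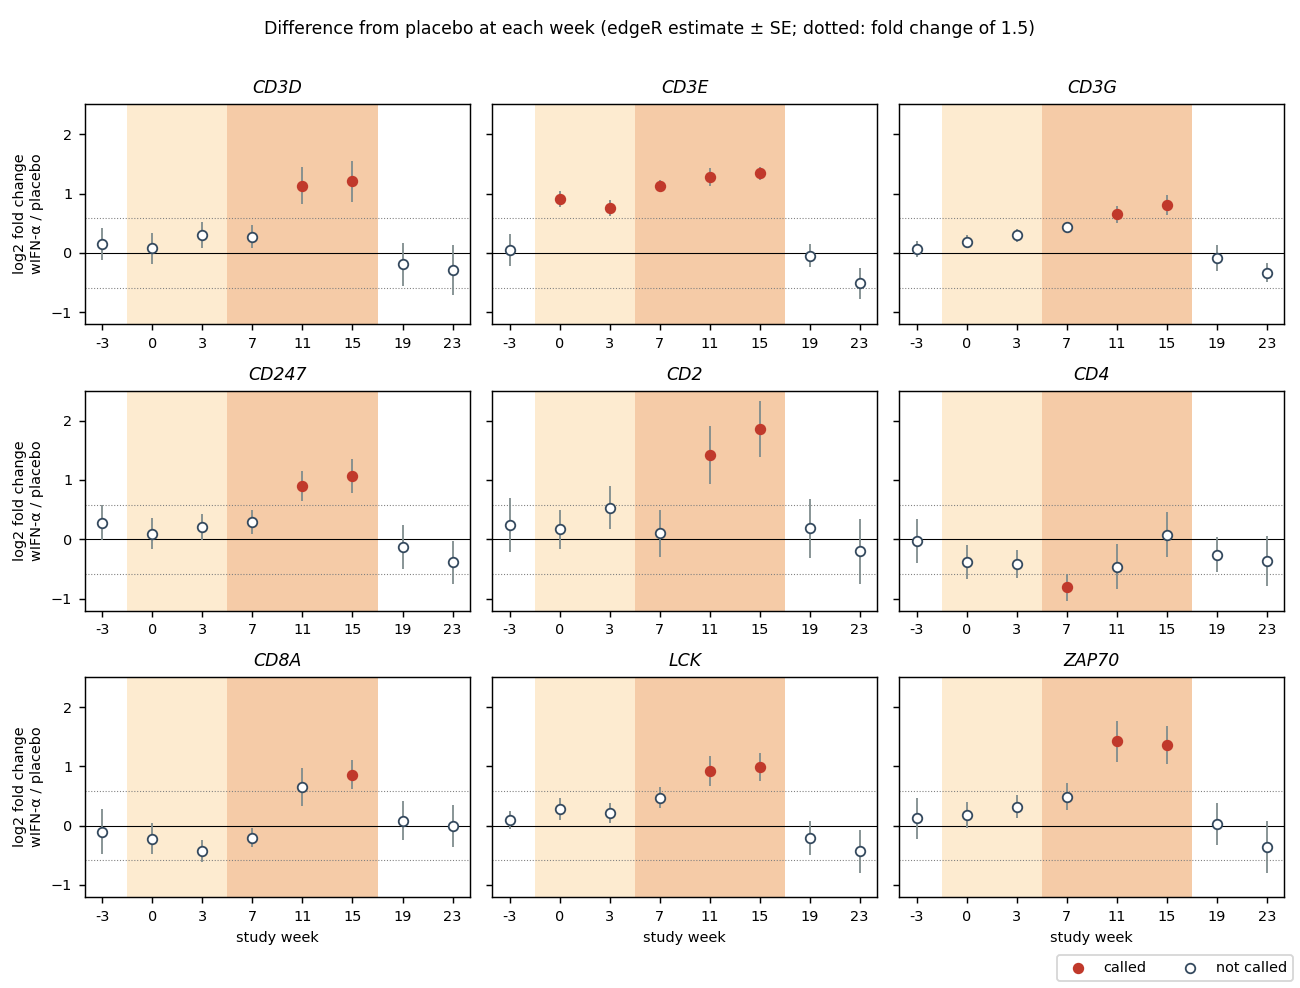
Log2 fold change of wIFN-α over placebo (y axis) at each study week (x axis) for each of the 9 genes, as the edgeR estimate with its SE. Filled points were called and dotted lines mark a fold change of 1.5. CD3E was called from week 0 to week 15, most other genes at weeks 11 and 15, and no gene at weeks 19 and 23.

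CD3E, the epsilon chain that pairs with both CD3D and CD3G, was the member with the earliest difference. At week -3 its level ran from 5.85 through a median of 41.5 to 55.0 CPM in the wIFN-α animals and from 8.22 through 36.5 to 51.0 CPM in the placebo animals, and without F1018 and F1016 the lowest values were 29.5 and 28.8 CPM. At week 0 it ran from 31.8 through 67.0 to 77.4 CPM under wIFN-α and from 26.7 through 30.9 to 50.8 CPM under placebo, and 9 of 11 treated animals exceeded the highest placebo value. The log2 difference was 0.91 ± 0.14 (SE), a fold change of 1.88 (edgeR, adjusted p = 1.04e-05). Within animals, CD3E was higher at week 0 than at week -3 in 11 of 11 wIFN-α animals and in 3 of 12 placebo animals, or in 10 of 10 and 2 of 11 without F1018 and F1016, a check added after the data had been seen. At week 3 the wIFN-α animals held 39.3, 61.2 and 85.0 CPM (lowest, median, highest) and the placebo animals 20.6, 34.9 and 55.0 CPM, a log2 difference of 0.76 ± 0.14 (edgeR, adjusted p = 0.000542), with the groups overlapping.

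On the higher dose the CD3E ranges no longer met. At week 7 the lowest, median and highest levels were 63.3, 72.9 and 97.6 CPM under wIFN-α and 23.2, 34.4 and 43.1 CPM under placebo (log2 difference 1.13 ± 0.10, edgeR adjusted p = 6.58e-09). At week 11 they were 54.4, 68.4 and 115 CPM against 22.5, 28.6 and 43.0 CPM (1.28 ± 0.15, edgeR adjusted p = 1.73e-06). At week 15 they were 67.4, 74.9 and 109 CPM against 24.8, 32.1 and 36.6 CPM (1.35 ± 0.11, a fold change of 2.54, edgeR adjusted p = 1.63e-08). CD3E was the single member without overlap at weeks 7 and 11, and CD3E and CD3G were both without overlap at week 15. Over all tested genes, 4.46%, 0.413%, 8.02%, 7.38% and 8.17% were higher without overlap at weeks 0, 3, 7, 11 and 15, and at weeks 0 and 3 no member was.

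CD3D and CD3G, the delta and gamma chains, were first called at week 11, later than CD3E. At week 7 CD3G levels were 11.01, 13.1 and 17.3 CPM under wIFN-α (lowest, median, highest) and 7.94, 10.3 and 11.7 CPM under placebo. Its log2 difference of 0.44 ± 0.09 passed the adjusted p (edgeR, 0.000288) but not the fold change of 1.5. CD3G then reached a log2 difference of 0.65 ± 0.14 at week 11 and 0.81 ± 0.16 at week 15 (edgeR, adjusted p = 0.00139 and 0.000764). At week 15 its lowest wIFN-α animal had 12.3 CPM and its highest placebo animal 12.2 CPM, so the ranges came close without meeting, with medians of 14.4 and 9.39 CPM.

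CD3D was not called through week 7, where its log2 difference was 0.28 ± 0.19 (edgeR, adjusted p = 0.253). At week 11 its levels were 3.81, 8.00 and 22.5 CPM under wIFN-α and 1.86, 4.25 and 6.58 CPM under placebo (log2 difference 1.14 ± 0.30, edgeR adjusted p = 0.00644). At week 15 they were 4.57, 8.32 and 27.9 CPM against 2.002, 4.90 and 7.30 CPM (1.21 ± 0.34, edgeR adjusted p = 0.00933). The groups overlapped at both weeks, and 4 of 8 wIFN-α animals exceeded the highest placebo value at week 15.

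CD247 encodes the zeta chain, which carries most of the activation motifs of the complex. At week 11 it ran through 1.65, 2.97 and 7.52 CPM under wIFN-α and 1.35, 1.89 and 2.46 CPM under placebo, and at week 15 through 1.80, 3.57 and 7.81 CPM against 0.714, 1.92 and 3.02 CPM. The log2 differences were 0.89 ± 0.25 and 1.07 ± 0.29 (edgeR, adjusted p = 0.00851 and 0.00646). Before week 11 its log2 difference lay between 0.09 and 0.29 after the start of dosing and was not called. The groups overlapped at every week, with 4 of 8 wIFN-α animals above the placebo range at week 15.

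**Figure D2:**
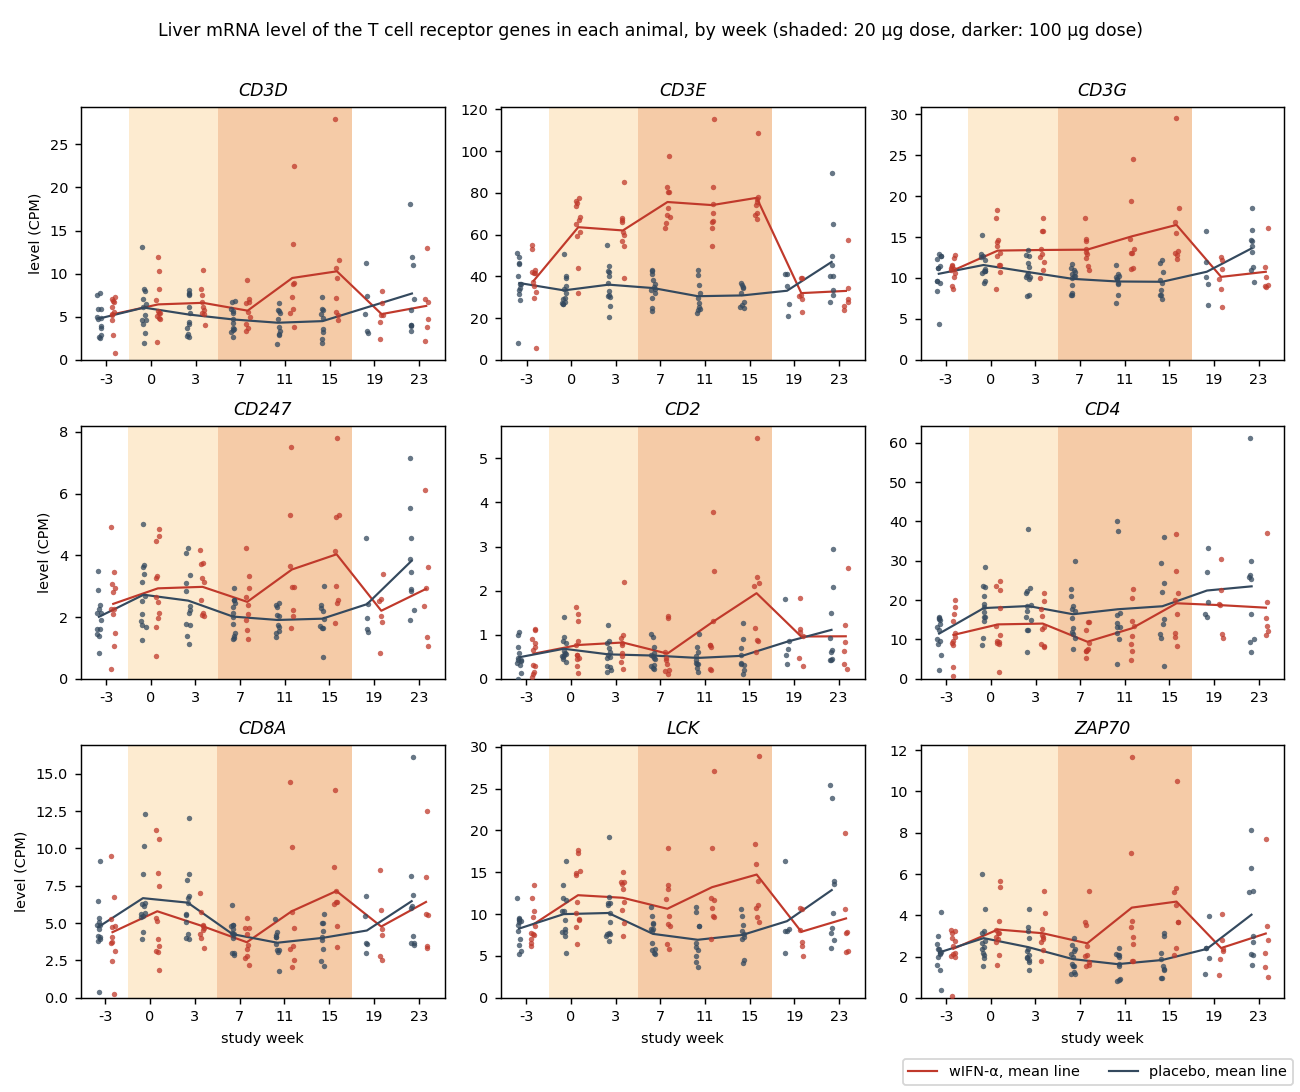
Level of each of the 9 genes in CPM (y axis, from 0, own scale per gene) in each animal at each study week (x axis), with lines through the group means and shading for the 20 µg and 100 µg periods. The CD3E points of the groups stand apart from week 7 to week 15 and mix at weeks -3, 19 and 23, and F1020 is the highest wIFN-α point of every gene at weeks 11 and 15.

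The balance between the chains of the complex was also followed. These ratios were looked at after the levels had been seen and carry no test. The log2 ratio of CD3E to CD3G within a biopsy averaged 2.23 ± 0.305 (SD, n = 11) under wIFN-α and 1.499 ± 0.221 (SD, n = 12) under placebo at week 0, and all 11 wIFN-α animals lay above all 12 placebo animals. The difference was 0.481 at week 3, where 2 of 9 wIFN-α animals exceeded the highest placebo value, 0.707 at week 7 with 7 of 9, 0.666 at week 11 with 3 of 8, 0.583 at week 15 with 5 of 8, and 0.0373 at week 19 with 0 of 6. The log2 ratio of CD3E to CD3D was higher under wIFN-α by 0.808, 0.415, 0.876, 0.269 and 0.286 at weeks 0, 3, 7, 11 and 15, and the groups overlapped more, with 0 of 11 wIFN-α animals above the placebo range at week 0 and 3 of 9 at week 7. At week -3 the group means of these ratios differed by 0.101 (CD3E to CD3G) and 0.0620 (CD3E to CD3D), with the placebo group higher in each. Without F1018 and F1016 they were 0.0421 higher under wIFN-α for CD3E to CD3G and differed by -0.172 for CD3E to CD3D.

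**Figure D3:**
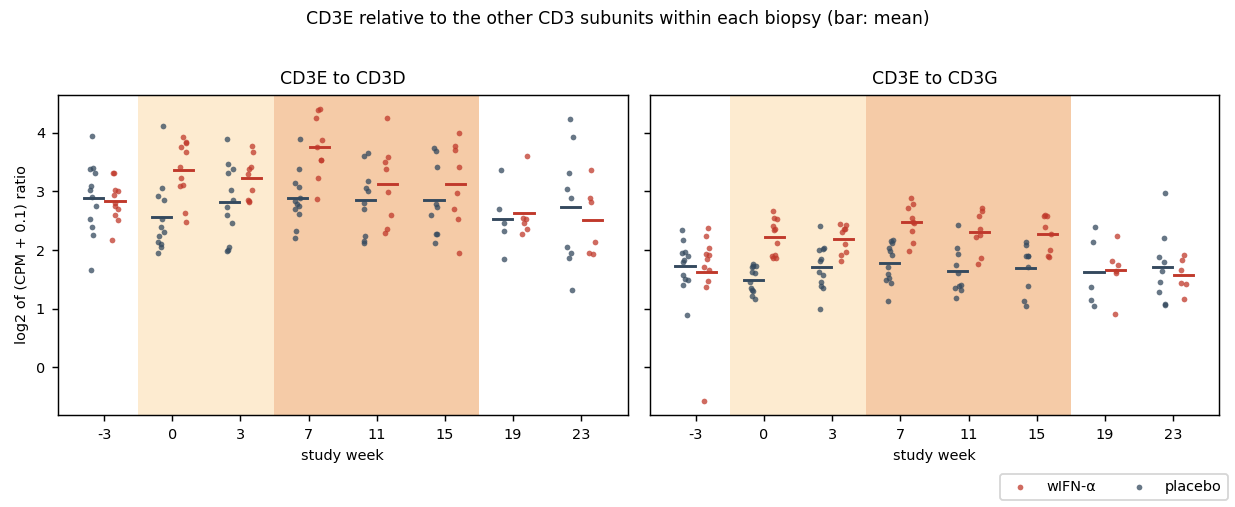
Log2 ratio of CD3E to CD3D (left) and of CD3E to CD3G (right), each CPM plus 0.1, in each biopsy (y axis) by study week (x axis) and group, with group means. At week 0 all 11 wIFN-α animals lie above all 12 placebo animals for CD3E to CD3G, and at week 19 the groups mix.

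A ratio to PTPRC, which encodes the leukocyte common antigen CD45, sets CD3E against leukocyte RNA in general. The log2 ratio was 1.04 ± 0.541 (SD, n = 11) under wIFN-α and 0.456 ± 0.448 (SD, n = 12) under placebo at week 0, a difference of 0.588 (two-sided permutation test, p = 0.0113, adjusted p = 0.0603). At week 7 the difference was 0.609 (two-sided exact permutation test, p = 0.00800, adjusted p = 0.0603), and at week 15 it was 0.119 (adjusted p = 0.899). The values were adjusted over 16 comparisons, and none passed. Without the muscle-rich biopsies, which at week 7 means without the placebo animal F1021 alone, the difference at week 7 was 0.692 and passed (exact permutation test, adjusted p = 0.0171).

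CD2 binds CD58 on other cells and strengthens the contact of the T cell with its target. It had the largest fold change of the members at week 15 and the fewest reads. At week 11 its log2 difference of 1.43 was level with that of ZAP70 (1.42). Without F1020 it fell there to 0.95, below CD3E (1.15) and ZAP70 (1.03). At week 15 the CD2 levels were 0.599, 1.63 and 5.46 CPM under wIFN-α and 0.107, 0.355 and 1.27 CPM under placebo, with 4 of 8 wIFN-α animals above the placebo range. The log2 difference was 1.87 ± 0.47, a fold change of 3.65 (edgeR, adjusted p = 0.00418). At week 11 the levels were 0.196, 0.766 and 3.79 CPM against 0.147, 0.391 and 1.02 CPM (log2 difference 1.43 ± 0.49, edgeR adjusted p = 0.0273). The week 11 call was lost without F1020 (0.95, adjusted p = 0.107), without M1002 (1.23, adjusted p = 0.0640), with the deepest run alone (1.28, adjusted p = 0.0508) and in limma-voom, with the animal as a block (1.04, adjusted p = 0.0764) and without it (1.05, adjusted p = 0.0962).

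Of the coreceptors, CD8A was called higher late in treatment and CD4 was called lower once. CD8A, a chain of the coreceptor for class I antigen that marks cytotoxic T cells and is also carried by some NK and dendritic cells, was called at week 15 alone. Its levels there were 3.40, 6.42 and 13.9 CPM under wIFN-α and 2.16, 4.09 and 5.64 CPM under placebo, and 6 of 8 wIFN-α animals exceeded the highest placebo value. The log2 difference was 0.86 ± 0.24, a fold change of 1.81 (edgeR, adjusted p = 0.00877), and it was 0.72 in 1 fit of all weeks on the deepest run with its sequencing lane as a covariate (adjusted p = 0.0789), against 0.83 in that fit without the lane (adjusted p = 0.0341). At week 11 it was 0.65 ± 0.32 (edgeR, adjusted p = 0.121). At weeks 0, 3 and 7 its estimates were -0.22, -0.43 and -0.20, none of them called.

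CD4, the coreceptor for class II antigen, is also expressed by macrophages in many species. It was the member never called higher, and it was lower at week 7, with 5.28, 7.65 and 14.4 CPM under wIFN-α and 7.54, 16.3 and 29.9 CPM under placebo. There, 7 of 12 placebo animals lay above every wIFN-α animal, and the log2 difference was -0.81 ± 0.23, or 0.571 of the placebo level (edgeR, adjusted p = 0.00543). In the fit of all weeks on the deepest run it was -0.78 with the lane as a covariate (adjusted p = 0.0624) and -0.82 without (adjusted p = 0.0467). At week 15 the levels were 8.46, 18.3 and 36.9 CPM against 3.17, 15.3 and 35.95 CPM, with the groups overlapping and a log2 difference of 0.08 ± 0.37 (edgeR, adjusted p = 0.887). At week 7, 3 genes of a 10-gene macrophage list were also called lower, namely CD163, ITGAM and VSIG4, with log2 differences of -0.99, -0.94 and -0.60, and none was called higher. The summed level of that list was 386 to 603 CPM under wIFN-α and 353 to 705 CPM under placebo, no gene of it was at 0, and its part in the CD4 result was not tested.

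The log2 ratio of CD8A to CD4 within a biopsy was higher under wIFN-α at week 7 by 0.569 (exact permutation test, two-sided, adjusted p = 0.0603), at week 11 by 0.751 (adjusted p = 0.147) and at week 15 by 0.605 (adjusted p = 0.187), and none of these passed. Under wIFN-α it averaged -1.29 ± 0.323 (SD, n = 9) at week 7 and under placebo -1.86 ± 0.509 (SD, n = 12). Whether it passed rested on the placebo animal F1021, whose biopsies were the muscle-rich ones of weeks 7 and 15. Without that animal the difference was 0.682 at week 7 (adjusted p = 0.00286), 0.984 at week 11 (adjusted p = 0.0171) and 0.808 at week 15. The week 7 value comes from leaving out the muscle-rich biopsies of every week. The week 15 value has an adjusted p = 0.0249 in that setting and 0.0426 when F1021 is left out at week 15 alone. F1021 had the lowest CD4 level of the placebo animals at weeks 11 and 15, 3.88 and 3.17 CPM. At week 19, after dosing, the ratio was still higher under wIFN-α by 0.323, with 4 of 6 wIFN-α animals above every placebo animal (exact permutation test, p = 0.0260, adjusted p = 0.104).

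Both kinases were called at weeks 11 and 15, and not at the earlier weeks at which CD3E was called. LCK, the Src family kinase that starts the cascade, had 9.08, 12.5 and 28.9 CPM under wIFN-α at week 15 and 4.14, 7.58 and 10.6 CPM under placebo, with 6 of 8 wIFN-α animals above the placebo range. Its log2 difference was 0.99 ± 0.24 at week 15 and 0.92 ± 0.25 at week 11 (edgeR, adjusted p = 0.00264 and 0.00766). At week 7 it was 0.47 ± 0.18, which passed the adjusted p (edgeR, 0.0355) and not the fold change.

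ZAP70 is the Syk family kinase that docks on phosphorylated CD3 and zeta chains, in T cells and in NK cells. It had 2.07, 4.10 and 10.5 CPM under wIFN-α at week 15 against 0.971, 1.56 and 3.16 CPM under placebo, and 6 of 8 wIFN-α animals exceeded the highest placebo value. The log2 differences were 1.36 ± 0.32 at week 15 and 1.42 ± 0.35 at week 11 (edgeR, adjusted p = 0.00221 and 0.00345), or fold changes of 2.57 and 2.67.

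Within animals, the change from week -3 to week 15 was counted for every member without F1018 and F1016, in 7 wIFN-α and 8 placebo animals. CD3E and CD3G were higher at week 15 in 7 of 7 wIFN-α animals, against 1 and 2 of 8 placebo animals. CD2, CD8A, LCK and ZAP70 were higher in 6 of 7, against 3, 3, 2 and 1 of 8. CD3D was higher in 5 of 7 against 2 of 8, CD247 in 5 of 7 against 4 of 8, and CD4 in 5 of 7 against 6 of 8. The counts of the groups thus lay farthest apart for CD3E, CD3G and ZAP70 and closest for CD247 and CD4.

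Whether the difference was larger at the end of the 100 µg period than on 20 µg was tested as the week 15 difference minus the mean of those at weeks 0 and 3, in 1 fit of all groups. All 9 estimates were above 0, from 0.46 (CD4) to 1.51 (CD2) on the log2 scale, against a median of -0.01 over all genes. None passed in edgeR, where 2.26% of all genes did (1.93% in the higher direction), although 8 of the 9 had an unadjusted p under 0.05. DESeq2 called CD3G and CD8A, and 2.66% of all genes higher. In limma-voom with the animal as a block, which uses that the same animals were biopsied at several weeks, 4.72% of all genes passed in the higher direction and so did 6 members, namely CD2 (1.63, adjusted p = 0.0238), CD247 (0.97, adjusted p = 0.0348), CD3G (0.53, adjusted p = 0.00847), CD8A (1.19, adjusted p = 0.0175), LCK (0.75, adjusted p = 0.0274) and ZAP70 (1.10, adjusted p = 0.0450). In limma-voom without the block no member passed, at 1.84% of all genes. Dose and time on treatment cannot be told apart here, because the higher dose always came later. For CD3E the estimate was 0.49 ± 0.23 (edgeR, adjusted p = 0.311).

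Within the 100 µg period the week 15 difference minus the week 7 difference ran from 0.20 (CD3E) to 1.76 (CD2). None passed in edgeR or in DESeq2, 3 had an unadjusted p under 0.05, and 0.0246% of all genes passed. These comparisons share the week 15 animals with the one before, so their values are not separate evidence.

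After dosing ended no member was called. At week 19 CD3E had levels of 22.99, 30.7 and 39.4 CPM in the wIFN-α animals and of 21.0, 26.8, 35.5, 41.0 and 41.2 CPM in the 5 placebo animals (log2 difference -0.05 ± 0.19, edgeR adjusted p = 0.937). CD3G had 6.46, 10.5 and 12.5 CPM against 6.70, 9.27, 10.1, 12.0 and 15.8 CPM, and LCK had 5.02, 7.38 and 10.7 CPM against 5.29, 7.94, 8.01, 8.19 and 16.4 CPM. The groups overlapped for every member at weeks 19 and 23, where 0.693% and 0.0401% of all genes were higher without overlap. Over weeks 19 and 23 together the log2 differences ran from -0.31 to 0.05 (edgeR, none called, none at an unadjusted p under 0.05, none in DESeq2), and 2.54% of all genes were called there. The wIFN-α animals were the same at both weeks, which that fit does not take into account. In limma-voom with the animal as a block 169 genes were called in place of 413, and again no member.

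The week 19 difference minus the week 15 difference was below 0 for all 9 genes. In edgeR it passed for CD3E (-1.37 ± 0.32, adjusted p = 0.000598), CD3G (-0.87 ± 0.23, adjusted p = 0.00304), LCK (-1.17 ± 0.38, adjusted p = 0.0217) and CD3D (-1.37 ± 0.50, adjusted p = 0.04998, just under the threshold), and 10.2% of all genes passed in that direction. The CD3D call was lost in 6 of 8 fits that left out 1 wIFN-α animal, and also with no filter, with M1004 included, with the lane and in limma-voom with the animal as a block (-1.14, adjusted p = 0.0527) and without it. The LCK call was lost in limma-voom without the block (-1.08, adjusted p = 0.0516). Without F1020 and without M1003 2 genes passed, CD3E and CD3G, and without F1013 7 did, the others being CD2, CD247 and ZAP70. CD2 and ZAP70 had estimates of -1.66 ± 0.76 and -1.30 ± 0.52 with adjusted p = 0.133 and 0.0764 (edgeR), and CD4 had -0.31 ± 0.57 (adjusted p = 0.801).

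The animals biopsied at both weeks gave the same comparison without a change of animals. CD3E was lower at week 19 in 6 of 6 wIFN-α animals, with a median log2 change of -1.27, and higher in 3 of 5 placebo animals. CD3G was also lower in 6 of 6 wIFN-α animals, with a median log2 change of -0.42. Of the other members, CD3D, CD247, CD8A and LCK were higher in 1 of the 6, CD2 and ZAP70 in 2 and CD4 in 4. In the placebo animals CD2 and CD4 were higher in 5 of 5, CD3D, LCK and ZAP70 in 4, CD3G and CD247 in 3 and CD8A in 2. The median log2 change of CD4 was 0.30 in each group. F1013 was the animal with higher levels of CD3D (from 4.57 to 7.98 CPM), CD247 (from 1.80 to 2.58 CPM), CD8A (from 4.82 to 8.55 CPM) and LCK (from 9.08 to 10.7 CPM).

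**Figure D4:**
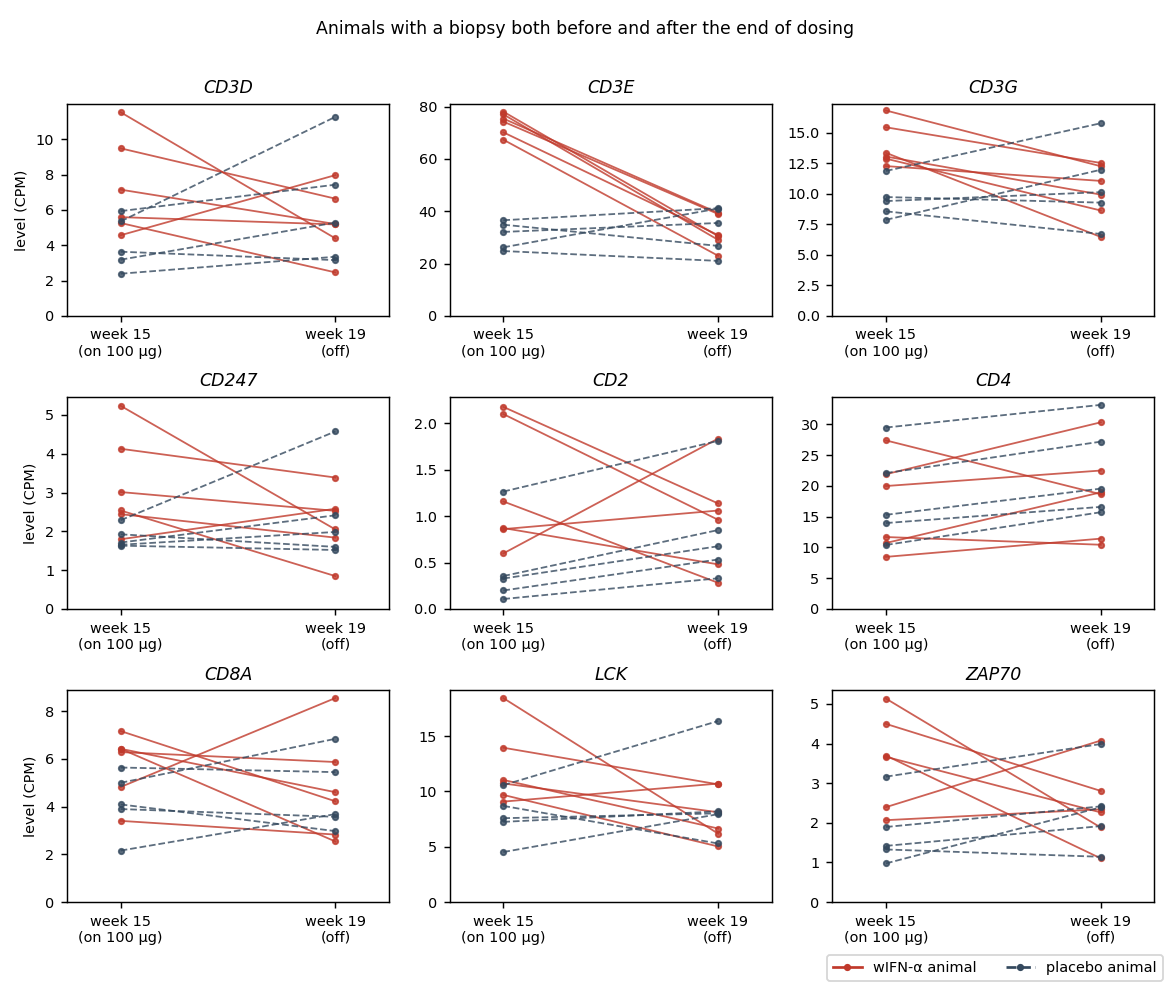
Level in CPM (y axis, from 0) at week 15 and week 19 (x axis) of each gene in the 6 wIFN-α and 5 placebo animals biopsied at both, with a line for each animal. CD3E and CD3G lines fall in all 6 wIFN-α animals. CD4 lines rise in 4 of these animals and in all 5 placebo animals.

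At week 23 none of the 9 genes was called. Their estimates were all below 0, which rested on the placebo animal M1008, since without it CD8A was at 0.28 and CD2 at 0.13. The estimates ran from -0.51 (CD3E) to -0.01 (CD8A), and CD3E had 23.9, 28.4 and 57.5 CPM in the wIFN-α animals and 27.7, 40.4 and 89.4 CPM in the placebo animals (edgeR, adjusted p = 0.338). All but 1 of the 15 week 23 biopsies carry a suffix T in their labels that is not explained there.

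No difference between the sexes was detected at week 15. The interaction of agent with sex passed for no member in edgeR (none at an unadjusted p under 0.05, none in DESeq2, 0% of all genes), and its estimates ran from -1.09 ± 0.73 for CD4 to 0.13 ± 0.61 for CD247. The errors are as large as many of the effects themselves.

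Individual animals stood apart. F1020 was the highest wIFN-α animal for all 9 genes at weeks 11 and 15, with 27.9 CPM of CD3D against 11.5 CPM in the next animal and 109 CPM of CD3E against 78.1 CPM. By the paper it died soon after the week 15 biopsy, of unknown cause, so it has no biopsy at weeks 19 and 23. Without F1020 all 8 calls of week 15 remained, with log2 differences of 0.64 (CD3G) to 1.45 (CD2), while at week 11 CD2 and CD3G were lost and 5 remained. F1013 was the lowest wIFN-α animal for 5 of the genes at weeks 3, 11 and 15 and for 7 at week 7, then the highest for 6 at week 19 and for all 9 at week 23. M1008 was the highest placebo animal for 8 of the genes at each of weeks 19 and 23.

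The libraries were run on several sequencing lanes. Over 7 lanes that held both groups at weeks 11 and 15, the within-lane log2 difference was above 0 in 7 for CD3E (0.65 to 1.57), CD3G (0.26 to 1.07), LCK (0.11 to 2.09) and ZAP70 (0.06 to 2.01). It was above 0 in 6 lanes for CD2, CD247 and CD3D, in 5 for CD8A and in 2 for CD4. Each lane held 1 to 4 biopsies of each group, with both weeks pooled and animals recurring, so lanes are not replicates. The LCK value of 2.09 came from 1 biopsy of each group. The values of 0.11 for LCK and 0.06 for ZAP70 came from 2 wIFN-α biopsies and 1 placebo biopsy.

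Across the 149 biopsies the members varied together, CD3E and CD4 less closely than the others. The 21 pairs without CD3E and CD4 had Pearson's r of log2 levels from 0.54 to 0.88 (median 0.78), the highest being CD3D with CD247. The pairs with CD3E had a median of 0.51, those with CD4 a median of 0.53, and CD3E with CD4 the lowest, 0.09. With the group means removed the median of the CD3E pairs was 0.42, that of the CD4 pairs 0.64 and that of the 21 pairs 0.77, so that CD4 lay closer to the rest within groups. The points share animals and libraries, so these values are descriptions.

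The genes most like the mean of the 9, among 13910 other genes averaging 1 CPM or more, were ARHGAP30 (r = 0.93, 149 biopsies), RUNX3 (0.93), PTPRC (0.93), SLAMF7, IL2RG, IKZF3, IKZF1, PTPN7, NKG7 and HCLS1 (0.91). For CD3E alone the nearest were GBP6 (0.88), C5orf56 (0.87), GBP7 (0.87), JAK3 (0.86) and GBP4 (0.86), and GBP6, GBP7 and GBP4 encode interferon-induced guanylate-binding proteins. CD4 had EMR4P (0.87), TBXAS1 (0.87), MARCO (0.83) and FCGR3A (0.83) nearest, and MARCO is a scavenger receptor of macrophages. CD8A had HLA-DRB1 (0.81), RNASE6 (0.80), TYROBP (0.79) and ITGB2 (0.79), of which HLA-DRB1 encodes a class II antigen-presenting chain and TYROBP an adaptor of NK and myeloid cells. CD2 had TOX (0.87), CD6 (0.87), CXCR3 (0.87) and ICOS (0.86), all known from T cells. The genes nearest to single members were chosen after their values had been seen.

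Other genes of the pathway were counted from lists at week 15, where the median log2 difference of all genes was -0.01. Of the genes for the receptor itself, TRAT1, an adaptor of the complex, was the one measured here, at 0 to 1.86 CPM in all biopsies (log2 difference 0.76 ± 0.40, edgeR adjusted p = 0.135). Of 9 tested coreceptor and costimulation genes 6 rose and none fell (median 1.504). They included ICOS (2.15 ± 0.56, edgeR adjusted p = 0.00528), CTLA4 (1.87 ± 0.51), CD6 (1.61) and CD5 (1.61), of which ICOS costimulates and CTLA4 inhibits. ICOS levels were 0.559, 2.04 and 12.2 CPM under wIFN-α and 0.159, 0.765 and 1.96 CPM under placebo. CD8B, the partner chain of CD8A, had 1.00, 1.72 and 4.48 CPM against 0.546, 1.31 and 2.16 CPM and was not called (0.53 ± 0.29, edgeR adjusted p = 0.152). CD28 was too scarce to be tested.

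Nearer the receptor, 10 of 18 tested signalling genes rose and none fell (median 0.81). The adaptors SKAP1 (1.499 ± 0.33, edgeR adjusted p = 0.00135), SH2D2A (1.33), SIT1 (1.12), LCP2 (1.12) and LAT (0.83 ± 0.25) were among them. SIT1 is known as an inhibitory adaptor. Further downstream 4 of 11 rose (median 0.46), among them NFATC1, NFATC2 (1.10) and DGKA (0.81, or 0.47 and not called without F1020). NFATC1, a calcium-regulated transcription factor also active outside T cells, had 36.9, 45.6 and 59.3 CPM under wIFN-α and 7.83, 9.72 and 14.2 CPM under placebo, with no overlap and a log2 difference of 2.19 ± 0.13 (edgeR, adjusted p = 1.35e-10). It was called at week 0 (1.74), week 3 (1.04), week 7 (2.08) and week 11 (2.23) as well.

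Among T cell transcription factors 6 of 10 rose and 1 fell (median 1.04). RUNX3 (1.87 ± 0.33, edgeR adjusted p = 0.000190), TBX21 (1.71), IKZF3 (1.70) and EOMES (1.24) rose, of which RUNX3, TBX21 and EOMES are known from cytotoxic and type 1 responses. RUNX3 had 2.97, 3.80 and 15.7 CPM under wIFN-α and 0.872, 1.53 and 2.48 CPM under placebo, with no overlap. Of genes induced by receptor signalling 5 of 8 rose (median 0.95), including EGR2 (2.26 ± 0.46, edgeR adjusted p = 0.000775), CD69 (2.16 ± 0.32), EGR3 (1.28) and TNFRSF4 (1.26). The call of EGR3 was lost in 12 of 17 fits that left out 1 animal. CD69, which interferon also induces, had 1.36, 2.13 and 5.63 CPM against 0.267, 0.583 and 0.957 CPM and was called at every treatment week. At week 19 no gene of any of these lists was called.

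**Figure D5:**
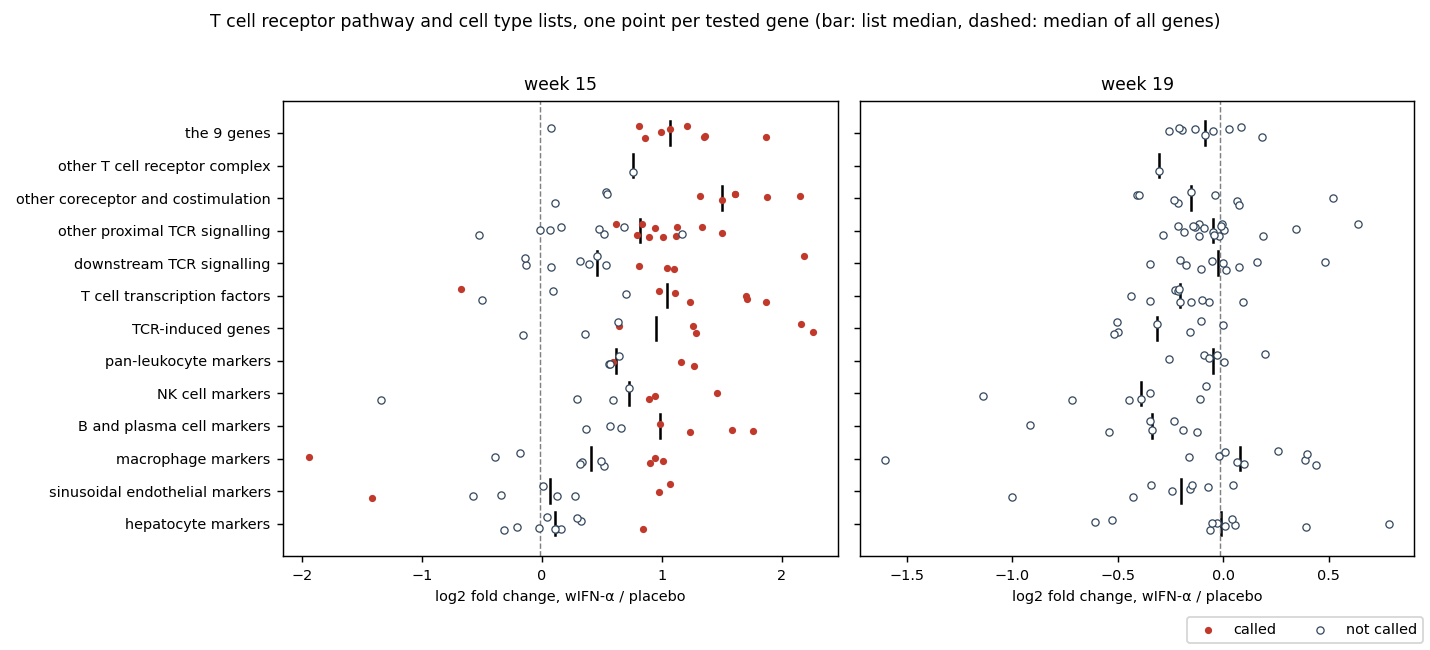
Log2 fold change of wIFN-α over placebo (x axis) of each tested gene of the T cell receptor pathway lists and the cell type lists (rows), with the list median as a bar and the median of all genes as a dashed line. At week 15 the medians of the coreceptor and costimulation genes (1.504) and T cell transcription factors (1.04) lie to the right of that of the hepatocyte genes (0.11). Those of the B and plasma cell (0.99), NK cell (0.73) and macrophage genes (0.41) do so as well.

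Markers of other cells of the liver moved in the same biopsies. At week 15, 3 of 6 pan-leukocyte genes rose (median 0.62), including PTPRC (1.27 ± 0.28, edgeR adjusted p = 0.00133), and their summed level was 141 to 419 CPM under wIFN-α and 99.9 to 173 CPM under placebo. The call of CORO1A (0.59), also among these, was lost in 7 of 17 fits that left out 1 animal and in 11 of 13 other alternatives. Of NK cell genes 3 of 7 rose (KLRK1 by 1.46, TYROBP by 0.94 and KLRD1 by 0.90), with a summed level of 54.0 to 174 CPM against 22.9 to 75.02 CPM. Of B and plasma cell genes 4 of 7 rose (MZB1 by 1.76, MS4A1 by 1.58, BLK by 1.24 and CD79A by 0.99), with 13.8 to 79.4 CPM against 8.75 to 23.8 CPM, and the call of CD79A was lost in 12 of 17 fits that left out 1 animal. The list medians were 0.73 for the NK cell genes and 0.99 for the B and plasma cell genes. Several members, among them CD2, CD247, LCK and ZAP70, are also expressed by NK cells, and the part of other leukocytes in the member differences was not tested.

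Of the macrophage genes C1QC (1.01), C1QA (0.94) and C1QB (0.90) rose and CD163 fell (-1.94 ± 0.77, edgeR adjusted p = 0.0498), and the call of CD163 was lost in 12 of 17 fits that left out 1 animal. Their summed level was 516 to 1219 CPM under wIFN-α and 357 to 643 CPM under placebo. Of the sinusoidal endothelial genes LYVE1 (0.98) and CLEC4M (1.07) rose and KDR fell (-1.41 ± 0.30), with 197 to 301 CPM against 197 to 362 CPM, and the call of CLEC4M was lost in 11 of 17 such fits. Of the hepatocyte genes FGB rose (0.85) and the other 9 were not called, with 68602 to 129220 CPM against 69366 to 100780 CPM. None of 19 tested muscle genes and 1 of 6 erythrocyte genes, which was lower under wIFN-α, were called. No gene of these lists was at 0 throughout a group at week 15.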

How the data were processed

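The authors made polyA-selected TruSeq libraries, sequenced paired-end 50 nt reads, and mapped them with Bowtie2 to a woodchuck transcriptome assembly named by human symbols. CASAVA, FastQC, SAMtools and DESeq are also named in the submitters' processing notes, with no versions. Each deposited table gives per gene an RPKM value, used here only for transcript length, and an estimated count, which is a whole number except in 118 of 3368022 entries and was rounded after summing. The authors gave several runs for 38 of 164 biopsies, and their counts were summed. The 7 biopsies of M1004, an animal the study set aside as likely clearing the virus at the start, were not compared. Nor were 8 taken at other times, most of them labelled as from animals that died, were found dead or were euthanised. This left 149 with 12072840 to 84805845 reads.

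Counts were normalised by TMM (CPM uses it), filtered with filterByExpr and tested with edgeR 4.0.16 (R 4.3.3) by quasi-likelihood within each week, with Benjamini-Hochberg adjustment over all genes. SE is the size of the log2 difference divided by the square root of F. Contrasts between weeks used 1 fit of 16 groups. DESeq2 1.42.0, RLE scaling, no filter, a fold change of 2, the deepest run alone, M1004 included, sex, lane, the muscle-rich biopsies left out and each animal left out were alternatives. The animal as a block used limma 3.58.1 (voom, duplicateCorrelation, correlation 0.214), and the same fit without the block, and the lane fit without the lane, were added after the data had been seen. The same animals recur across weeks: residuals of same-animal biopsies had a median r of 0.313 over 450 pairs, against -0.0075 for other animals. Ratios used CPM plus 0.1 and permutation tests. On data simulated for week 15, calls were made for 36% of genes changed 1.5-fold, 86% at 2-fold and 92% at 3-fold, and for 7 of 14680 unchanged genes. The changed genes were drawn from those averaging over 2 CPM, so these rates do not cover CD2 (0.621 CPM in the placebo animals). The repeat runs of placebo animal M1008 at week 15 differed more than any others. Their chi-square per degree of freedom was 136.9, against a median of 1.74 for runs sharing a barcode and of 147 for different animals. Whether both runs came from 1 biopsy was not tested. Their sum gave the highest placebo levels of CD2, LCK and ZAP70 at week 15. The 8 calls of that week remained without M1008, but no withdrawal fit left it out.

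The members and lists were chosen with earlier results of these data known. All 9 members are named. Each list names at most the 4 called genes with the largest week 15 change, or the 2 most abundant where none was called, plus PTPRC, CD8B, LAT and CD28. A few genes that this rule names are not reported here by name, though the counts include them. CD163, ITGAM and VSIG4 at week 7 were named after their values were seen. Response classes of the animals are not in the labels and were not compared.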

Additional observations from a re-analysis of the deposited data

Results flagged for a closer look

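In all, 16 single values stood apart from the rest of their group by Dixon's test, out of 90 groups of 4 to 10 animals. All lay at the high end. The test used untransformed CPM and the genes share biopsies, so its nominal rate of about 1 in 20 cannot be held against this count. F1020 accounted for 7 of them. At week 15 it had 27.9 CPM of CD3D (next animal 11.5), 109 CPM of CD3E (78.1), 29.6 CPM of CD3G (18.5), 5.46 CPM of CD2 (2.31), 28.9 CPM of LCK (18.4) and 10.5 CPM of ZAP70 (5.34), and at week 11 it had 115 CPM of CD3E (83.0). F1013, another wIFN-α animal, stood above its group at week 23 with 57.5 CPM of CD3E (next 34.2), 16.1 CPM of CD3G (11.3), 37.0 CPM of CD4 (19.6), 19.7 CPM of LCK (10.6) and 7.72 CPM of ZAP70 (3.48). M1007 had 2.20 CPM of CD2 at week 3 (next 0.995). The placebo animal M1008 had 16.4 CPM of LCK at week 19 (next 8.19), and 61.1 CPM of CD4 (30.0) and 16.1 CPM of CD8A (8.15) at week 23.

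The difference from placebo changed between weeks 15 and 19 by a test of that change itself for CD3D (-1.37 on the log2 scale), CD3E (-1.37), CD3G (-0.87) and LCK (-1.17), and the CD3D call was lost in 6 of 8 fits that left out 1 wIFN-α animal. In the wIFN-α animal M1004, which no main comparison used, CD3G was 19.6 CPM at week 15, above the 18.5 CPM of the highest of 81 placebo biopsies of all weeks. That value lay within the 12.3 to 29.6 CPM of the wIFN-α animals compared at week 15.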

How the results depend on the processing

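The counts of members called at weeks -3, 19 and 23 and off treatment stayed at 0 under every alternative run, and no member that was called on either side changed sign (77 of 2385 member values had the other sign, none of them called). A fold change above 2 left 0 members at week 0, 0 at week 3, 1 at week 7, 4 at week 11 and 5 at week 15, since that threshold is stricter, and it left 1709 genes at week 15 in place of 3327. In 1 fit of all weeks on the deepest run with its lane as a covariate 1 member was called at week 7 and CD8A was lost at week 15, whereas the same fit without the lane, added after the data had been seen, called 2 and 8. Leaving out each animal of either group gave 5 to 7 members at week 11 and 8 in every fit at week 15. The dose difference passed for 6 members with the animal as a replicate block, for 2 with DESeq2, for 1 with M1004 included, and for 0 to 2 with each of 8 wIFN-α animals left out, 2 being without F1014. Over all genes it passed for 986 with the block in place of 367. The withdrawal difference passed for 2 to 7 members with each of these 8 left out, 7 without F1013 and 2 without F1020 or M1003, and no placebo animal was left out of these contrasts. The block was fitted in limma-voom. That fit without the block, also added after the data had been seen, passed 0 members for the dose difference (339 genes) and 2 on withdrawal and called 1 at week 7, where CD4 was lost (-0.79). Against edgeR, limma-voom lost CD2 at week 11 and CD3D on withdrawal with and without the block, and with the block no other member's call differed from edgeR besides those of the dose difference. The log2 ratio of CD8A to CD4 was 0.63 to 0.98 at week 11 and 0.48 to 0.81 at week 15 with each animal left out, passing without F1021. Without the muscle-rich biopsies, which at weeks 7 and 15 are those of F1021, it passed at week 7 (0.68) and week 15 (0.81), as did CD3E to PTPRC at week 7 (0.69). Apart from the threshold, the causes were not tested. Genes called off treatment ranged from 194 to 721 with each of the 8 wIFN-α animals left out (413 in the full fit). In limma-voom they were 169 with the animal as a block and 359 without it. At week 19 DESeq2 called 89, and the most called at week 23 was 307. Depth limits CD2 most, with a median of 16 reads.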
